A study of Arabidopsis thaliana with 2 samples.

Results

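LCR and SCRL genes encode small secreted peptides rich in cysteine. They are the 107 nuclear genes that RefSeq annotates as protein-coding in Arabidopsis thaliana (assembly TAIR10.1) with the symbol LCR (low-molecular-weight cysteine-rich) or SCRL (SCR-like) followed by a number, out of 27444 nuclear protein-coding genes. Of these, 80 are LCR and 27 are SCRL genes. The members were chosen by symbol, and the family itself was selected on the number of nucleosomes listed in its genes and flanks, with earlier results of these data known. All values below are therefore descriptions and carry no test. A further 2 genes with such symbols are annotated as transcribed pseudogenes and were left out.

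The data are nucleosome positions in whole seedlings, mapped by sequencing DNA that micrococcal nuclease (MNase), which cuts between nucleosomes, had left intact. The plants were grown for 2 to 3 weeks in long days, and 1 library came from nrpe1, which lacks a working largest subunit of the plant-specific RNA polymerase V, and 1 from Col-0, the wild type. The deposited list pools both libraries and names no genotype for any nucleosome, so nrpe1 and Col-0 could not be compared, there were no replicates and the depth of each library is unknown. It holds 397452 nucleosomes on the 5 nuclear chromosomes, each an interval whose end lies 120 to 180 bp beyond its start, with a score of the authors' own between 0.50 and 0.991 that was used only to rank and to select nucleosomes. A nucleosome was counted for a gene when the centre of its interval lay inside the gene as RefSeq annotates it.

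Cysteine-rich peptides of this kind fold around disulfide bonds and are sent out of the cell. The SCRL genes are named after SCR, the pollen coat protein of Brassica by which a stigma recognises pollen of its own S haplotype and refuses it, and the LCR genes are related to other pollen coat proteins of Brassica and to the plant defensins, which act against fungi. Many such genes of Arabidopsis are used mainly in flowers, seeds or pollen rather than in leaves, and most have no described function. Neither transcripts nor histone marks were measured here.

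LCR and SCRL genes held few listed nucleosomes for their length, and most held a single one. Their 107 gene bodies contained 144 centres, or 2.04 per kb (95% Poisson interval 1.72 to 2.40), whereas other protein-coding genes of the same length held 4.43 per kb. The density of LCR and SCRL genes was thus 0.460 of that of same-length genes (0.388 to 0.542). The same-length genes were, for each LCR or SCRL gene, all other coding genes within 10% of its length, 124 or more in each case, and every LCR or SCRL gene counted alike. Listed intervals covered 26.5% of the sequence of LCR and SCRL genes, against 54.7% of same-length genes. Intervals given with densities treat listed nucleosomes as independent counts and cover counting error only. Those given with shares of genes treat genes as independent, although neighbouring genes can share a stretch without a listed nucleosome.

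Of the 107 genes, 13 held no centre, 57 held 1, 25 held 2, 11 held 3 and 1 held 4. Genes with exactly 1 centre were thus 53.3% of LCR and SCRL genes, against 7.81% of the 8340 other coding genes within their range of lengths. Those with none were 12.1% (exact binomial interval 6.63 to 19.9%), against 2.12% of these 8340 genes. Weighted to the lengths of LCR and SCRL genes, the shares among same-length genes were 16.8% with 1 centre and 4.70% with none. At 5 or more centres stood 0 LCR and SCRL genes, against 16.9% of same-length genes.

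**Figure D1:**
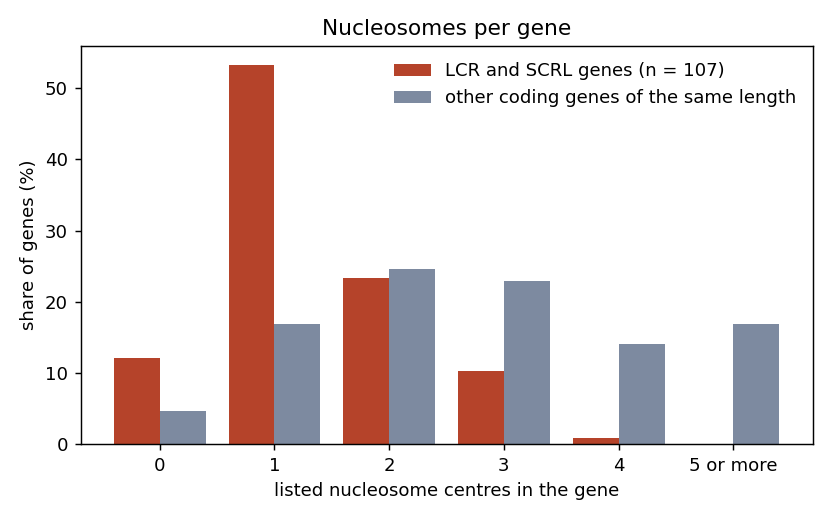
Share of genes, in percent, by the number of listed nucleosome centres in the gene, for the 107 LCR and SCRL genes and for other coding genes weighted to the same lengths. LCR and SCRL genes pile up at 1 centre (53.3% against 16.8%) and none of them reaches 5.

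Set against its own same-length genes, 92 of the 107 genes held fewer centres than their median, and 3 held more. Among the 8340 other coding genes, 38.7% lay below the median of their own length and 39% above it. Below the lower quartile stood 52 LCR and SCRL genes, or 48.6%, against 16.4% of other coding genes. No LCR or SCRL gene lay above the upper quartile, against 16.8% of other coding genes. The 3 genes above the median were LCR68, LCR85 and SCRL8.

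The number of nucleosomes rose with gene length in LCR and SCRL genes, with a lower rank correlation than in other coding genes. The shortest gene had 270 bp, the median gene 584 bp and the longest 1558 bp. The rank correlation between length and number of centres was 0.257 across the 107 genes and 0.582 across the 8340 other coding genes. Both describe genes of 1 pooled list. The 8340 genes were not weighted to the lengths of LCR and SCRL genes and include a larger share of long genes. The correlations are therefore not matched for spread of length. The 28 genes of 800 bp or longer averaged 1.71 centres per gene, against 4.48 in same-length genes, and the 28 genes under 450 bp averaged 1.0, against 1.78. Per length, those of 800 bp or longer held 1.64 centres per kb (1.21 to 2.17), against 4.28 per kb in same-length genes, a ratio of 0.383. Those under 450 bp held 2.57 per kb (1.71 to 3.72), against 4.56 per kb, a ratio of 0.564. The intervals of these ratios, 0.282 to 0.508 and 0.375 to 0.815, overlap. Overlap alone does not place a difference within counting error, and the difference between the 2 ratios was not tested.

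**Figure D2:**
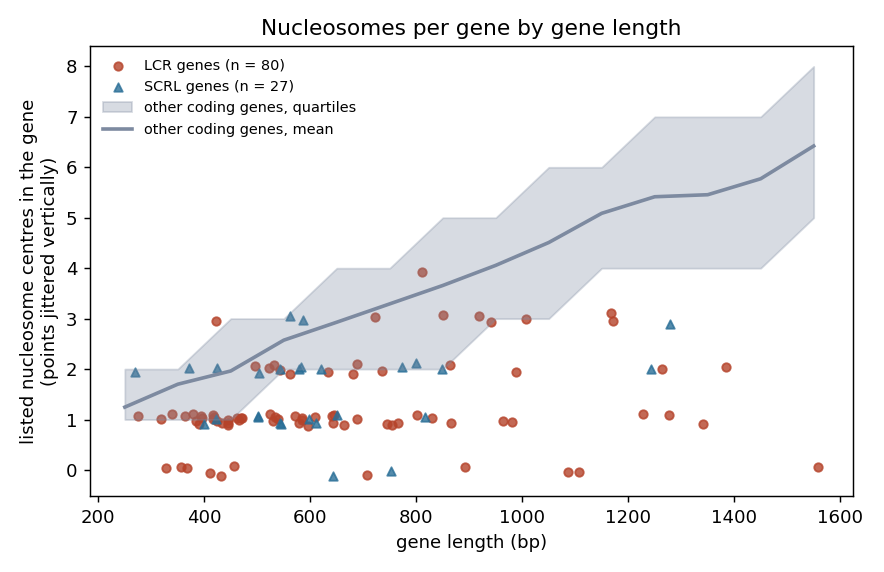
Number of listed centres in each LCR gene (circles) and SCRL gene (triangles) against gene length in bp, with points jittered vertically, beside the mean and quartiles of other coding genes in steps of 100 bp. The mean of other genes climbs with length while most LCR and SCRL genes stay at 1 or 2.

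The sparsest surroundings belonged to LCR47 and LCR52, with no centre in the gene nor within 1 kb on either side. Windows as empty as these made up 0.264% of the 8340 other coding genes. LCR47 (AT3G42473, 892 bp) lay in 3.80 kb without a listed interval, between nucleosomes on chromosome 3 at 14605062 to 14605203 and at 14609008 to 14609133. LCR52 (AT3G61175, 327 bp) and its neighbour LCR53 (AT3G61177, 456 bp), which also held none, shared a stretch of 3.58 kb between 22641775 to 22641899 and 22645478 to 22645621 on the same chromosome. In all, 15 of the 107 genes had 1 centre or fewer in the gene and both flanks together, which is 14.0%, against 1.26% of the 8340 other coding genes. The shares of 0.264% and 1.26% were not weighted to the lengths of LCR and SCRL genes. For genes with no centre inside, such weighting raised the share from 2.12% to 4.70%.

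Empty gene bodies occurred at all lengths. The longest of all, LCR33 (AT3G43083, 1558 bp), held no centre, a value matched by 0.404% of its same-length genes. LCR33 had 4 centres in the flank on its lower-coordinate side and 1 on the other. LCR1 (1108 bp) and LCR14 (AT2G25344, 1087 bp) were empty as well, and LCR14 had a single flanking nucleosome on chromosome 2 at 10794580 to 10794708. LCR40 (AT2G14935, 356 bp) had 1 flanking nucleosome, at 6431942 to 6432082 on chromosome 2, and none inside. The other empty genes were LCR39, LCR41, LCR42, LCR65, SCRL24 and SCRL25. Around the 13 empty genes the stretch without a listed interval ran from 1.28 to 3.80 kb, with a median of 2.20 kb.

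Of the genes with 1 nucleosome, 10 had no other within 1 kb. They lie on chromosome 2 (LCR5, LCR35, LCR50 and LCR75), chromosome 3 (LCR18) and chromosome 4 (LCR13, LCR36, LCR38, LCR61 and LCR63), and those on chromosome 2 are given as examples, taken first by locus number. LCR5 (AT2G28355), although 1228 bp long, held 1 at 12119897 to 12120031 on chromosome 2, while 97.1% of its same-length genes held more. LCR35 (AT2G22121) held 1 at 9398078 to 9398219, LCR50 (AT2G12465) held 1 at 5055522 to 5055652, and LCR75 (AT2G31957) held 1 at 13588005 to 13588138. These 4 single nucleosomes scored between 0.672 and 0.866, around the median of the whole list, 0.790.

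At the other end stood 1 gene with 4 centres and 11 with 3, of which the 7 densest are described here beside it. LCR68 (AT2G02130, 810 bp), which also carries the plant defensin name PDF2.3, had the most, 4, at 539928 to 540067, 540124 to 540244, 540205 to 540334 and 540283 to 540414 on chromosome 2. LCR85 (AT4G22210, 422 bp) held 3 at 7.11 per kb, between 11752503 and 11752845 on chromosome 4, and 6.45% of its same-length genes held more. SCRL17 (AT2G25685, 587 bp) held 3 at 5.11 per kb between 10937617 and 10937918 on chromosome 2, and LCR59 (AT4G30070, 942 bp) held 3 at 3.18 per kb. LCR66 (AT1G61070, also named PDF2.4) held 3 at 3.53 per kb and LCR72 (AT2G02140, also named PDF2.6) held 3 at 3.27 per kb. In LCR85, SCRL17 and LCR59 the 3 intervals overlapped one another in a chain, and listed intervals covered 74.4%, 51.4% and 36.2% of the gene. The last 3 intervals of LCR68 overlapped in the same way.

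SCRL7 (AT1G60989, 562 bp) and LCR57 (AT5G42242, 722 bp) also held 3 centres each, at 5.34 and 4.16 per kb, with intervals that overlapped in a chain. Both genes overlap another annotated gene. The pooled list gives no strand, so nucleosomes in shared sequence can belong to either gene. How much of LCR57 is shared was not analysed here. In all, 11 of the 107 genes overlapped another gene over any length. These held 2.38 per kb (1.43 to 3.71), against 2.00 per kb (1.66 to 2.38) in the 96 that did not. The shortest gene, SCRL8 (AT1G60983, 270 bp), reached the highest density, 7.41 per kb, with 2 centres, at 22455269 to 22455395 and 22455428 to 22455565 on chromosome 1.

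The nucleosomes that were listed in these genes differed little in score and size from those of same-length genes. Their median score was 0.790, against 0.792 in same-length genes, and 49.3% (exact binomial interval 40.9 to 57.8%) reached the median of the whole list, against 50.5%. The median distance from interval start to end was 136 bp, against 137 bp. Fewer of them overlapped a listed neighbour, 43.8% (35.5 to 52.3%) against 65.0% in same-length genes. This share depends on how many nucleosomes are listed, and the family was selected on that number. It is therefore not a result separate from the low density, and its interval counts overlapping partners as independent. The 3 highest scores were 0.959 in SCRL5 (AT1G60987), at 22460390 to 22460528 on chromosome 1, 0.949 in LCR84 (AT2G14365), at 6088571 to 6088691 on chromosome 2, and 0.944 in LCR63 (AT4G30067), at 14696286 to 14696414 on chromosome 4.

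In the 57 genes with 1 centre, that centre lay in the central part of the gene, between 33.3 and 66.7% of its length, in 18, or 31.6% (exact binomial interval 19.9 to 45.2%). Among same-length genes that also held 1 centre the share was 47.5%, above this interval. Genes with 1 centre made up 39.5% of the same-length genes of LCR6 (274 bp) but 2.49% of those of LCR5 (1228 bp). The genes compared may therefore differ in length from the 57. In the 57 LCR and SCRL genes the distance to the nearer gene edge was at least 53.0 bp and at most 548 bp, and its median was 166 bp. Which edge is the start of transcription was not analysed here, because the gene table gives no strand. Where an LCR or SCRL gene held 2 centres or more, neighbouring centres lay a median of 109.5 bp apart, and 70.0% of 50 gaps were under 150 bp, about the length of DNA in a nucleosome core. In same-length genes with 2 or more centres the median was 131.5 bp and the share 58.0%. Same-length genes more often held 3 centres (22.9% against 10.3%) or 4 (14.1% against 0.935%). The spacings were therefore not matched for the number of centres per gene.

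Low density continued outside the genes and came closer to that around same-length genes with distance. Within 1 kb on either side, 309 centres were counted, or 1.44 per kb (1.29 to 1.61), against 2.34 per kb beside same-length genes, a ratio of 0.616 (0.549 to 0.689). These 309 are 296 different nucleosomes, since neighbouring genes share flanks, and 7 of the 296 were centred in another LCR or SCRL gene. Between 1 and 2 kb the ratio was 0.894 (0.823 to 0.970), between 2 and 5 kb it was 0.937 (0.895 to 0.980), and between 5 and 10 kb it was 1.04 (1.003 to 1.071). Beyond 1 kb, too, stretches around neighbouring genes overlap, so a nucleosome can be counted for several genes. The intervals treat such repeated counts as independent and are too narrow, so bounds close to 1 do not separate these ratios from 1. At the limit of the 1 kb flank, the last centre inside lay 997.5 bp from LCR22 and the first outside 1000.5 bp from SCRL5.

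The lowest values of all were reached just outside the gene edge. In the 300 bp next to the 214 edges there were 41 centres, 0.639 per kb (0.458 to 0.866), against 1.72 per kb beside same-length genes. In the last 100 bp the values were 0.421 and 1.68 per kb. From 100 to 200 bp inside the edge the density was 2.47 per kb in LCR and SCRL genes and 4.52 per kb in same-length genes. Gene bodies of LCR and SCRL genes were 1.41 times as dense as their own flanks (1.15 to 1.73), against 1.89 times for same-length genes. In the set of nucleosomes whose score reached the list's median the value was 1.29, with an interval from 0.962 to 1.71 that includes 1.

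**Figure D3:**
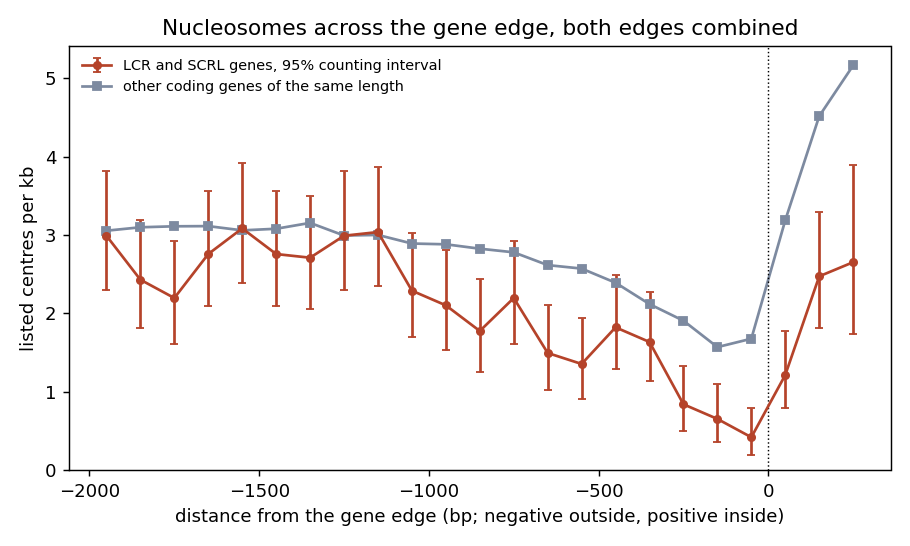
Listed centres per kb in steps of 100 bp from the gene edge, negative outside and positive inside, both edges combined, for the 214 edges of LCR and SCRL genes (95% counting interval; inner steps use genes long enough to reach them) and for same-length coding genes. The LCR and SCRL curve drops to 0.421 per kb next to the edge and lies closer to the other curve, though mostly below it, beyond 1 kb.

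Neighbouring genes held 61.8% of the nucleosomes in the flanks of LCR and SCRL genes, against 65.8% of those beside same-length genes. Other annotated genes filled 24.3% of the flanks of LCR and SCRL genes, against 37.6% of those of same-length genes, and held 191 of the 309 flanking centres. In flank sequence outside every annotated gene LCR and SCRL genes had 0.729 centres per kb, against 1.28 per kb beside same-length genes. In flank sequence inside other genes the densities were 3.67 and 4.11 per kb. Both flanks were empty in 14 genes, or 13.1%, against 5.52% of the 8340 other coding genes, 1 flank in 47, and neither in 46. The fullest flanks were those of LCR2 and SCRL3, with 9 centres each.

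SCRL genes were denser than LCR genes by a margin within counting error in the gene body. The 27 SCRL genes held 43 centres, 2.53 per kb (1.83 to 3.41), and the 80 LCR genes 101, or 1.88 per kb (1.53 to 2.29), a ratio of 1.35 with an exact interval from 0.919 to 1.94. In SCRL genes 2 were empty and 10 held 1 centre, while in LCR genes 11 were empty and 47 held 1. Flanks of SCRL genes held 1.83 centres per kb and those of LCR genes 1.31 per kb, a ratio of 1.397 (1.09 to 1.78). Both sets lay below same-length genes, with ratios of 0.564 (0.408 to 0.760) for SCRL and 0.427 (0.348 to 0.519) for LCR genes.

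Among the LCR genes, those that also carry a plant defensin name were denser than the rest. LCR66, LCR67, LCR68, LCR69 and LCR72 bear PDF names as synonyms, and were grouped after their values had been seen. They held 3, 2, 4, 3 and 3 centres, 3.63 per kb together, against 1.74 per kb in the 75 other LCR genes, a ratio of 2.09 (1.12 to 3.64). Against same-length genes their ratio was 0.833 (0.466 to 1.37), and that of the other LCR genes 0.393 (0.315 to 0.486). LCR68, LCR69 and LCR72 lie in 1 cluster on chromosome 2 with LCR73, which has no PDF name and held 3.57 per kb. That cluster stood at 0.830 of same-length genes (0.429 to 1.45). LCR66 and LCR67, outside it, held 3.53 and 3.69 per kb. Whether the density goes with the name or the place was not tested. Flanks of the genes with a PDF name did not share the difference, at 0.900 per kb against 1.34 per kb in the other LCR genes, a ratio of 0.672 (0.303 to 1.301).

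Other families of small cysteine-rich secreted peptides had higher densities than LCR and SCRL genes, within counting error for PDF and GASA genes. The 6 genes with a PDF symbol, plant defensins outside the rule, held 2 to 4 centres each and 3.59 per kb, 0.819 of same-length genes (0.468 to 1.33), and LCR and SCRL genes stood at 0.568 of their density (0.338 to 1.02). The 34 RALF and RALFL genes, whose peptides raise the pH outside the cell, are as short, with a median of 575 bp. They held 3.54 per kb, 0.811 of same-length genes (0.649 to 1.001), and 18 of the 34 lay below the median of their length and 6 above it. LCR and SCRL genes stood at 0.577 of the RALF and RALFL density (0.439 to 0.762), with flanks at 0.963 of theirs (0.767 to 1.22). Flanks of PDF genes were denser, so that those of LCR and SCRL genes stood at 0.525 of them (0.366 to 0.776), and the same value was 0.963 for LTP genes (0.599 to 1.65) and 1.02 for GASA genes (0.626 to 1.77). The 6 LTP genes for lipid transfer proteins held 3.66 per kb, 0.845 of same-length genes (0.530 to 1.28), with LCR and SCRL genes at 0.558 of their density (0.355 to 0.918).

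GASA genes, which respond to gibberellin, were closest to LCR and SCRL genes. The 6 of them held 2.43 per kb, 0.573 of same-length genes (0.328 to 0.931), and LCR and SCRL genes stood at 0.839 of their density (0.499 to 1.51). GASA1, GASA2 and GASA3 held 4 centres each, at 4.28 to 4.74 per kb. The longer GASA4, GASA5 and GASA6 held 1, 2 and 1, at 0.674 to 1.51 per kb. The 2 EPF genes, EPF1 and EPF2, whose peptides limit the formation of stomata, held 6 and 4 centres, 4.86 per kb together. The symbol SCR, searched for as well, matched SCARECROW, a transcription factor gene of root development that encodes no such peptide.

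**Figure D4:**
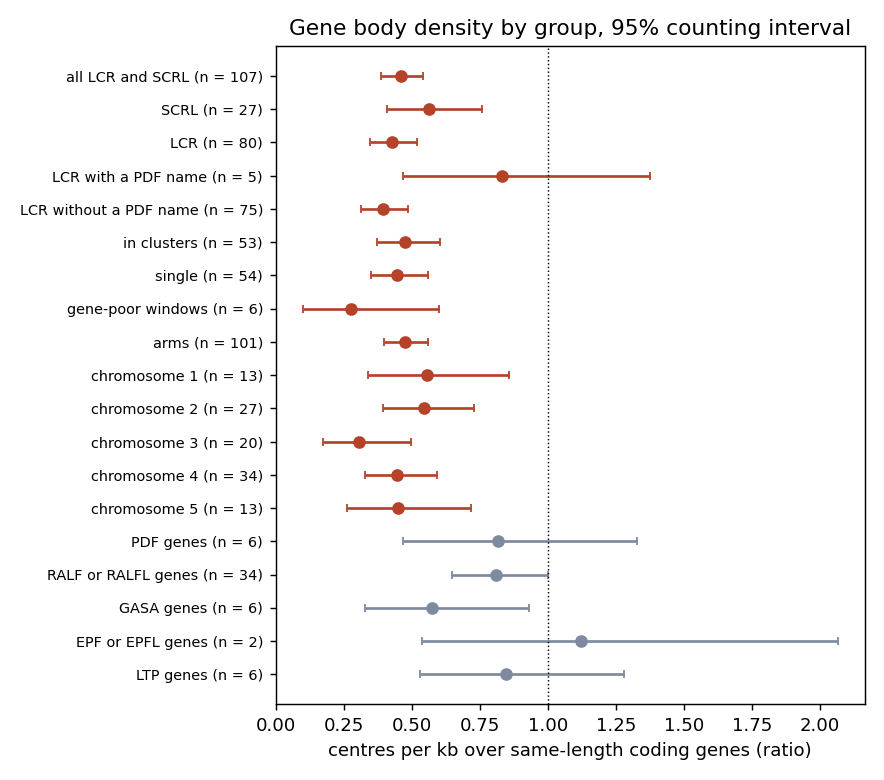
Density of listed centres over that of coding genes of the same length, as a ratio with its 95% counting interval, for LCR and SCRL genes by group and chromosome and, in grey, for other small cysteine-rich families; the dotted line marks 1. The LCR genes with a PDF name (0.833) lie nearest to 1 among the groups of LCR and SCRL genes.

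The genes lie partly in tandem clusters, and those in clusters had about the density of those that stand alone. With at most 20 kb between neighbours, 53 genes formed 19 clusters and 54 were single. Genes in clusters held 2.12 centres per kb and single genes 1.97 per kb, a ratio of 1.08 (0.766 to 1.52). Of the clusters 13 were pairs and 1 was a trio, LCR12, LCR46 and LCR86 on chromosome 5, with 1 centre in each gene.

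The largest cluster holds LCR21 to LCR27 on chromosome 4, within 11.3 kb, and each of its 7 genes had exactly 1 nucleosome. In the order of the chromosome these lay at 14425441 to 14425570 in LCR23, 14427876 to 14428010 in LCR22, 14430258 to 14430396 in LCR21 and 14431986 to 14432144 in LCR24. Next came 14432745 to 14432867 in LCR26, 14434175 to 14434311 in LCR27 and 14436283 to 14436425 in LCR25. Their scores ran from 0.693 in LCR27 to 0.942 in LCR23. The 9 other centres of the cluster lay mainly in other annotated genes, 3 each in the transcribed pseudogenes AT4G29276 and AT4G29281 and 1 in a non-coding RNA gene, with 2 in sequence free of genes.

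A second cluster on chromosome 4, of LCR61, LCR63, LCR59 and LCR19, spanned 6.36 kb with 8 centres. Of these, 7 lay in the 4 LCR genes, with 1 in LCR61, 1 in LCR63, 3 in LCR59 and 2 in LCR19. The eighth lay in a transcribed pseudogene, AT4G30072, so that no centre fell in sequence between genes. That nucleosome, at 14698924 to 14699057, was the single one outside the 4 genes within 1 kb of any of them, and lies in flanks of both LCR59 and LCR19.

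On chromosome 3, LCR8, LCR52, LCR53 and LCR54 held 1, 0, 0 and 1 centres, at 22641775 to 22641899 in LCR8 and 22647734 to 22647857 in LCR54. The 9 remaining centres of this cluster all lay in AT3G61180, a protein-coding gene between LCR53 and LCR54. The SCRL cluster on chromosome 1 was fuller, by a margin within counting error. Its 5 genes, SCRL8, SCRL6, SCRL4, SCRL5 and SCRL7, held 2, 2, 1, 2 and 3 centres, or 3.50 per kb (1.68 to 6.43). The genes of the chromosome 3 cluster held 1.18 per kb (0.143 to 4.25). SCRL7 lies inside another gene, AT1G60990, so its 3 centres belong to either gene. On chromosome 2, LCR69, LCR68, LCR72 and LCR73 held 3, 4, 3 and 2, or 3.64 per kb (1.88 to 6.36). The pseudogene LCR71, which lies inside the chromosome 2 cluster and was left out by the rule, held 3 centres in 277 bp, while SCRL28, the other one, held 0 in 453 bp.

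**Figure D5:**
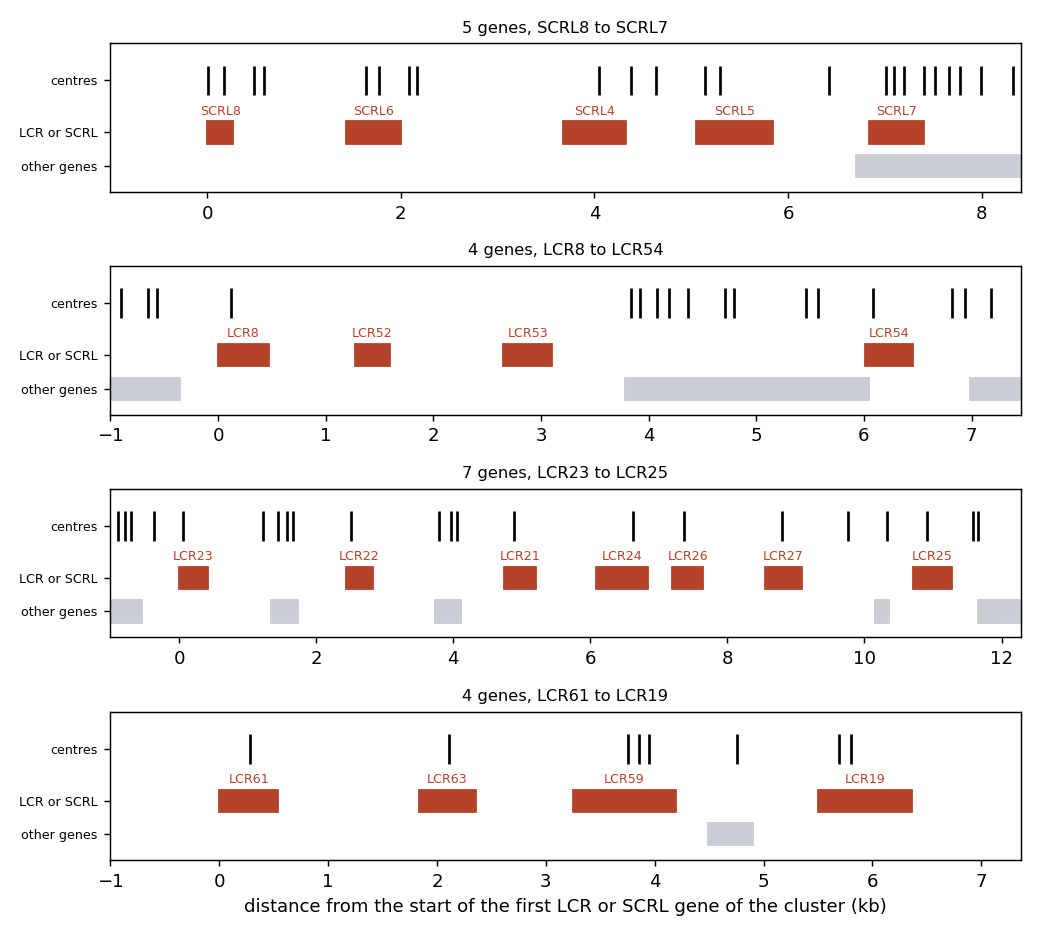
Maps of 4 of the 5 clusters of 4 or more genes, in kb from the start of the first LCR or SCRL gene, with listed nucleosome centres as ticks, LCR and SCRL genes as red boxes and other annotated genes as grey boxes. Each of the 7 genes from LCR23 to LCR25 carries 1 tick, and the cluster from LCR61 to LCR19 has 1 tick outside its LCR genes.

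By chromosome the ratio to same-length genes ran from 0.306 on chromosome 3 to 0.555 on chromosome 1, below 1 on each of the 5. Chromosome 3 held 7 of the 13 empty genes among its 20, against 6 among 87 on the other chromosomes. Its LCR and SCRL genes had 1.35 centres per kb and those of the other chromosomes 2.18 per kb, a ratio of 0.617 (0.342 to 1.04), within counting error. Chromosome 3 was singled out after its values had been seen.

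The share of genes in gene-poor sequence was close to that of other coding genes in the same range of lengths. Windows of 500 kb with under 50% of the chromosome's median density of coding genes, most of them around the centromeres, contained 6 of the 107, or 5.61%, against 5.47% of the 8340 other coding genes. SCRL16 held 3 centres there, LCR29, LCR30 and LCR50 held 1 each, and LCR33 and LCR47 held none. Together they had 1.18 per kb (0.432 to 2.56), against 2.11 per kb (1.77 to 2.49) in the 101 genes on the arms, a ratio of 0.559 (0.202 to 1.25), within counting error. The gene nearest to the threshold from below was LCR33, at 34.3% of the median, and from above SCRL18 (AT2G14282), at 51.4%, which held 1 centre and had 5 more on its lower-coordinate side. Against same-length genes the arm genes alone stood at 0.474 (0.398 to 0.560).

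The treatment of reads that match several places is not stated, and tandem copies such as those above can share sequence. No sequence of these genes was used here, so their part in the counts was not tested.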

How the data were processed

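MNase-protected DNA from 1 nrpe1 and 1 Col-0 library of seedlings was aligned with Bowtie to TAIR10, per the submitters' processing notes. The authors deposited 1 pooled list with chromosome, start, end and a score for each nucleosome, per the file headers. The definition of the score, the caller and the way of pooling are not stated. Columns of single libraries numbered 0, so no genotypes were compared and no test was made. Genes came from the RefSeq table of TAIR10.1, matched by symbol. The profile of centres at gene ends on each chromosome fitted that over all genes best at lags of -3 to 3 bp. An offset common to all chromosomes would not show. Whether listed positions count from 0 or 1 is not given, and they are printed as listed.

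Counts were made in Python 3.11.15 with numpy 2.4.6, pandas 2.3.3 and scipy 1.17.1. The counting and the gene body ratio were checked on a simulated list whose centres were placed independently. How well the intervals hold was not checked. Intervals are exact Poisson for densities (the density of the comparison genes taken as fixed), exact conditional for ratios between groups of genes and Clopper-Pearson for shares. Members, gene lists and alternatives were chosen with earlier results of these data known. Genes are named by most centres (8), fewest centres with flanks (8), top scores (3), extremes of length, distance to the gene-poor threshold and membership of a cluster of 4 or more genes. The empty genes, the trio of LCR12, LCR46 and LCR86, LCR2, LCR22, SCRL3, LCR67, LCR13, LCR18, LCR36, LCR38 and the gene-poor members were named with their values known.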

Additional observations from a re-analysis of the deposited data

How the results depend on the processing

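No paired analysis was possible because the list pools 1 library per genotype. Of 36 alternative values, 34 stayed within the 95% interval of the reported value. They covered the upper-scoring set (score at least the list's median), assignment by any overlap, lengths within 5%, same-length genes of the same class of window, flanks of 500 bp or outside other genes, cluster gaps of 5 kb, windows of 250 kb and, chosen after seeing the data, leaving out genes that overlap another gene or carry a PDF name. The density of LCR and SCRL genes over same-length genes lay between 0.438 and 0.463 under these. The 2 values that moved were the share of empty genes, 47.7% (20.5% of same-length genes) in the upper-scoring set, where fewer nucleosomes are counted, and gene bodies over their own flanks, 1.87 with flanks of 500 bp. Of 31 alternative ratios 30 stayed on the same side of 1. The exception was clustered over single genes, 0.961 in the upper-scoring set. Depth per library is unknown, and 1 pooled list without replicates limits every value to counting error.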
